A study of Mus musculus with 7 samples.

Results

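Levels of 10 genes of the smooth muscle contractile apparatus were followed through single-cell RNA of the mouse mammary gland, namely Acta2, Actg2, Myl9, Mylk, Myh11, Myl6, Cnn1, Tagln, Tpm1 and Tpm2. They were taken by symbol from the raw count matrix, where all 10 were found among 27942 gene symbols, and each was summed per mouse and cell type. The study profiled nulliparous females at diestrus on a mixed background of FVB, 129 and C57BL/6J, asking how the gland differs with age. Dissociated #4 glands, with lymph nodes removed, gave 1 library each for 3 young mice of 3 to 4 months (Young A, B and C) and 4 aged mice of 13 to 14 months (Aged A, B, C and D). The labels name no transgene and no treatment, and each animal was its own replicate.

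Smooth muscle cells and their epithelial relatives shorten when myosin pulls on actin filaments. Calcium enters the cell, calmodulin binds it and switches on myosin light chain kinase, and the phosphorylated myosin then walks along actin, while tropomyosin and calponin lie on the filament and tune that contact. In the mammary gland this apparatus is best known from myoepithelial cells, the outer epithelial layer that squeezes milk from the alveoli when oxytocin arrives, and it is also used by pericytes, the mural cells wrapped around capillaries.

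The matrix held 13684 cells of 13 deposited cell types, with 6652599 to 16999625 unique molecular identifiers (UMIs, which count mRNA molecules) per mouse. Myoepithelial cells numbered 1670, of which 281 came from young and 1389 from aged mice, and pericytes numbered 349, of which 231 came from young and 118 from aged mice. Summed per mouse, the counts behind each level were 203450 to 2903207 UMIs in myoepithelial cells and 116596 to 663762 in pericytes. Levels are given as counts per 1000000 UMIs (CPM) of the cells of that type in that mouse. The count is taken near the 3′ end of each mRNA and is not scaled by length, so genes are compared with themselves and not with each other. Across all libraries 101 cell barcodes occurred in 2 mice. Effects of age and of how each library was processed cannot be told apart.

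The deposited names were checked against their markers. Myoepithelial cells held 4152 to 6022 CPM of Krt14, a basal keratin, and at most 10.1 CPM of Rgs5, a pericyte marker. Pericytes held 345 to 1340 CPM of Rgs5 and at most 413 CPM of Krt14. They also held endothelial RNA, and this differed with age: among pericytes of Young A, B and C, 95.9%, 91.5% and 94.9% of cells had a UMI of Pecam1 or Cdh5, which mark endothelium, against 41.7%, 39.1%, 75% and 60.0% in Aged A, B, C and D. The lowest Wilson 95% limit in a young mouse was 82.8% and the highest in an aged mouse was 87.3%, limits that cover counting error only. The changes with age in pericytes are therefore also given for cells with and without such a UMI. Several of the 10 genes helped the authors to name myoepithelial cells, so differences in level between cell types are described here and not tested.

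Short stretches of promoter are shown first, because these genes are textbook targets of serum response factor, which binds the CArG box, and of TEAD factors, which bind CATTCC. RefSeq promoters (GRCm38.p6, 250 bases before to 50 after the start) were matched for 7 of the 10 genes, with 8 sequences. The CArG box, searched on both strands, was found in 2 of the 8 and in 1.63% of 32851 mouse promoters. CATTCC, on either strand, was found in 3 of the 8 and in 14.7% of promoters. The 30 bases around each match are given 5′ to 3′ on the transcript's strand, with the motif in capitals. GGAATG is CATTCC on the opposite strand.
Myl9 (chr2:156775293-156775322, + strand, CArG box): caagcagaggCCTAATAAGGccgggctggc
Myl6 (chr10:128493040-128493069, - strand, CArG box): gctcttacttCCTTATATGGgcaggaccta
Tpm1 (chr9:67049252-67049281, - strand): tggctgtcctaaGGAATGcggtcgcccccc
Mylk (chr16:34784780-34784809, + strand): tgcagttcagaaCATTCCctggtacgtgca
Acta2 (chr19:34255502-34255531, - strand): gagcagaacagaGGAATGcagtggaagaga
The motif began 161 bases before the start in Myl9, 50 in Myl6, 56 in Tpm1, 158 in Mylk and 146 in Acta2. These starts are those of RefSeq, and all of the stretches but that of Myl9 lie inside the bounds of the gene in GENCODE given below, so they are upstream of a start inside it. The other promoter sequence of Myl6 held no CArG box. A match describes the letters in this window and is not a binding site.

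Across the 13 cell types, myoepithelial cells and pericytes held the highest median level of all 10 genes. Over the 7 mice the median of Acta2 was 2838 CPM in pericytes (1050 to 6806) and 1816 CPM in myoepithelial cells (754 to 9245), and the next type, dendritic cells, had 36.2 CPM (12.9 to 41.9) over the 5 mice with at least 3 such cells. Pericytes came first for Acta2, Myl9, Mylk, Myh11, Myl6 and Tagln, and myoepithelial cells came first for Actg2, Cnn1, Tpm1 and Tpm2. In 9 of the 10 genes the ranges of the top 2 types overlapped. Cnn1 was the exception, with a median of 424 CPM in myoepithelial cells (160 to 1419) and 77.2 CPM in pericytes (2.83 to 152).

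Outside these 2 types most of the genes were low, and 4 of them reached further. Myl6, the essential light chain that also serves non-muscle myosin, was present in every type, with medians from 534 CPM in Mb macrophages to 2086 CPM in pericytes and a median of 1284 CPM in NK cells. Tpm1 had medians of 212 CPM in Luminal-HS-AV cells, 168 in Luminal-HS cells and 164 in vascular endothelial cells, whose ranges overlapped. Tagln had a median of 375 CPM in vascular endothelial cells (92.5 to 481), overlapping that of myoepithelial cells but not that of luminal AV cells, which came next with 21.2 CPM (6.0 to 51.8). Mylk had medians of 106 CPM in lymphatic (63.5 to 157) and 76.8 CPM in vascular endothelial cells (45.7 to 86.5).

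**Figure D1:**
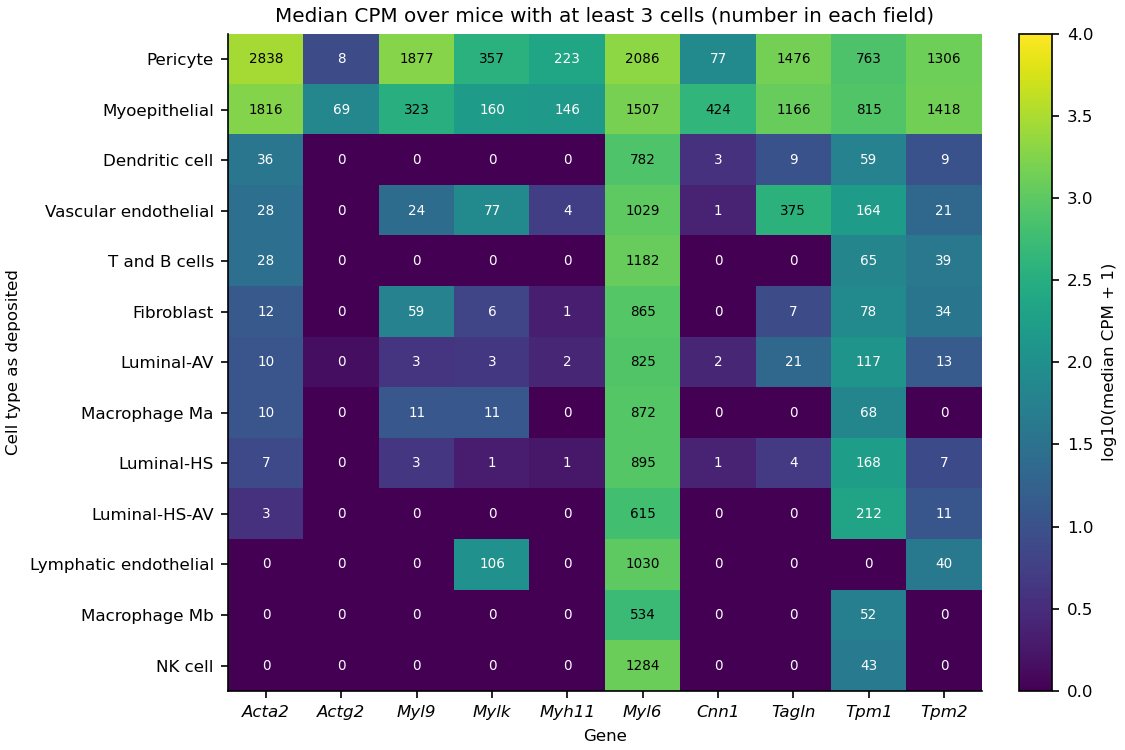
Level of each of the 10 genes in the 13 cell types, as the median CPM over mice with at least 3 cells of the type, written in each field and coloured by log10(median CPM + 1). Myoepithelial cells and pericytes stand at the top for all 10 genes, and Myl6 is present in every type, from 534 to 2086 CPM.

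In myoepithelial cells 9 of the 10 genes fell with age and Tpm1 did not pass the test. All 9 were lower in every aged mouse than in any young mouse, a separation in that direction seen in 20% of the 6738 genes tested. The edgeR quasi-likelihood test over those genes, with calls at 1.5-fold or more and a p under 0.05 after Benjamini-Hochberg adjustment, placed 14.8% of all genes lower and 12.8% higher in aged mice, against 9 and 0 of the 10. The median log2 change was -1.60 over the 10 genes and 0.01 over all genes. The study had already reported Acta2, Actg2, Myl9, Mylk, Myh11 and Myl6 as lower with age in these same cells. That part of the count was therefore known beforehand. The study also found less ACTA2 protein in aged glands, by immunofluorescence of myoepithelial cells in additional mice. In summed counts, fewer expressing cells and less RNA per cell cannot be told apart, and counts per cell are given further on.

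The actins came with the steepest differences. Acta2, the smooth muscle alpha actin (chr19:34241090-34255590, - strand, GRCm38), stood at 8083, 4345 and 9245 CPM in Young A, B and C and at 1331, 1816, 1214 and 754 CPM in Aged A, B, C and D. The lowest young mouse was above the highest aged mouse, and the mean was 7225 ± 2561 CPM (SD, n = 3) against 1279 ± 436 (SD, n = 4), 5.65-fold higher in young mice. Its log2 change with age was -2.41 (SE 0.29, edgeR adjusted p = 3.03e-05). Actg2, the gamma actin of enteric smooth muscle (chr6:83512905-83536265, - strand), stood at 383, 152 and 542 CPM in the young and at 23.9, 68.9, 26.2 and 9.13 CPM in the aged mice. These groups did not overlap either, with means of 359 ± 196 and 32.0 ± 25.7 CPM. Actg2 fell by 3.32 on the log2 scale (SE 0.46, edgeR adjusted p = 0.000107). Actins are close paralogs, and reads shared between them cannot be told apart in the counts.

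The myosin chains and their kinase followed. Myl9, the regulatory light chain that the kinase phosphorylates (chr2:156775420-156781658, + strand), stood at 950, 551 and 1075 CPM in young and 260, 323, 226 and 176 CPM in aged mice. The change was -1.72 (SE 0.24, edgeR adjusted p = 0.000121). Mylk, the myosin light chain kinase itself (chr16:34745210-35002420, + strand), stood at 337, 378 and 451 CPM in young mice. In aged mice it stood at 95.5, 131, 160 and 58.2 CPM, all below the young, a change of -1.72 (SE 0.26, edgeR adjusted p = 0.00018). Its locus overlaps 3 antisense genes, and whether the counting used strand is not given in the sources used here.

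Myh11, the smooth muscle myosin heavy chain (chr16:14194535-14291372, - strand), stood at 250, 315 and 441 CPM in young against 86.4, 146, 108 and 47.9 CPM in aged mice. It fell by 1.67 on the log2 scale (SE 0.29, edgeR adjusted p = 0.000584). Myl6 (chr10:128490860-128494145, - strand) had a smaller change, from 2810, 2217 and 3263 CPM in young to 1456, 1507, 1114 and 1002 CPM in aged mice. The groups stayed apart, with 2763 ± 524 against 1270 ± 250 CPM, and the log2 change was -1.03 (SE 0.21, edgeR adjusted p = 0.00175).

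Calponin and transgelin, related proteins that bind the actin filament, both fell. Cnn1 (chr9:22099216-22109630, + strand) stood at 689, 560 and 1419 CPM in young and 248, 424, 329 and 160 CPM in aged mice, a change of -1.52 (SE 0.32, edgeR adjusted p = 0.00211). Tagln (chr9:45929619-45936058, - strand) stood at 1665, 1784 and 3220 CPM in young and 560, 1166, 671 and 468 CPM in aged mice, a change of -1.53 (SE 0.29, edgeR adjusted p = 0.0012). In both genes Young C was the highest young mouse and Aged B the highest aged mouse. Tagln overlaps Pcsk7 and Gm48529 on the other strand.

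The tropomyosins, which lie along the actin filament, parted from each other. Tpm2 (chr4:43514711-43523765, - strand) stood at 2101, 1671 and 3246 CPM in young and 1268, 1418, 1092 and 988 CPM in aged mice. It fell by 0.88 on the log2 scale (SE 0.23, edgeR adjusted p = 0.00942), and without Young C the change was -0.52 and missed the threshold (adjusted p = 0.113). Tpm1 (chr9:67022590-67049406, - strand) stood at 708, 649 and 1019 CPM in young and 687, 861, 817 and 815 CPM in aged mice. Its groups overlapped, with means of 792 ± 199 and 795 ± 74.9 CPM, and its log2 change was 0.12 (SE 0.21, edgeR adjusted p = 0.726).

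**Figure D2:**
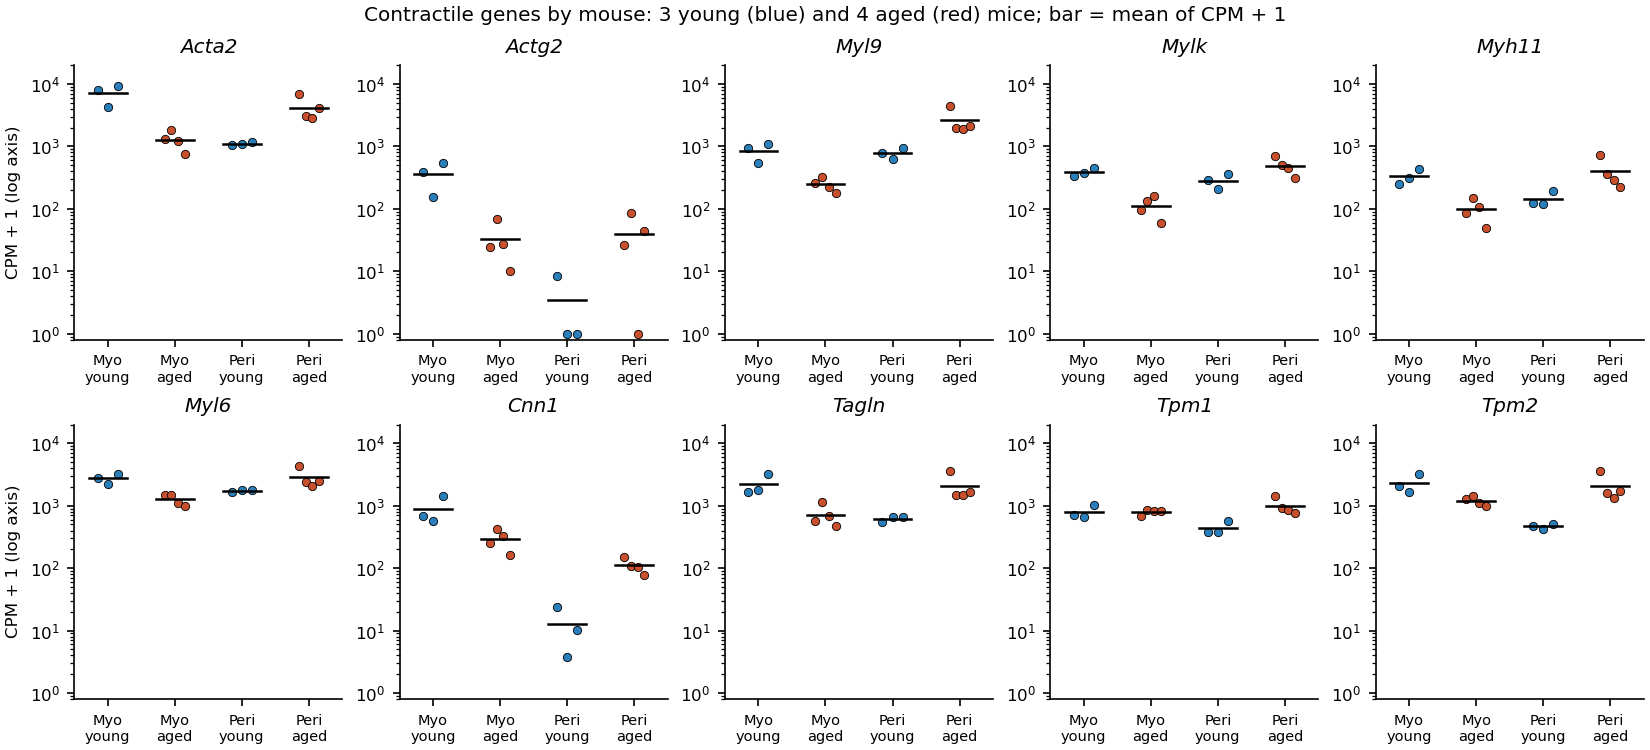
Level of each of the 10 genes in myoepithelial cells and pericytes of each mouse, as CPM + 1 on a log axis, with 1 point per young (blue) or aged (red) mouse and a line at each group's mean. In myoepithelial cells the young points lie above the aged points for all genes but Tpm1. In pericytes the aged points lie above the young for 8 genes, and for Mylk and Actg2 the groups overlap.

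The keratin Krt14 did not pass the test with age. It had a log2 change of 0.12 (edgeR adjusted p = 0.691), and the summed myoepithelial marker list (Krt14, Krt17, Krt5, Trp63, Oxtr) was 10407 to 11773 CPM in aged and 9123 to 11125 CPM in young mice. Within the list Krt17 rose, and Krt5 and Oxtr fell. Markers of other cells did move. In aged and young mice, respectively, the sums in myoepithelial cells were 53.1 to 169 and 428 to 766 CPM for 4 fibroblast markers, 39.6 to 183 and 205 to 644 CPM for 5 endothelial markers and 34.4 to 73.0 and 167 to 253 CPM for 3 immune markers. Of the endothelial markers Fabp4 fell by 2.02 (edgeR adjusted p = 0.00452) and Eng was at -0.22 (adjusted p = 0.742). Pecam1, Cdh5 and Sox17 were too low to test. Sums of 7 pericyte markers were 2.41 to 24.8 CPM in aged and 0 to 14.2 CPM in young mice, so pericyte RNA was near 0 in both. Luminal markers summed to 968 to 1677 CPM in aged and 752 to 1455 CPM in young mice, which overlapped, and among them Krt19 and Prlr fell. The part of the fibroblast, endothelial, immune and luminal lists in the result was not tested.

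Counted per cell, after each cell was thinned to 2000 UMIs, both the share of cells with a UMI and the number of UMIs were lower in aged mice. Acta2 was seen in 99.2 ± 0.95% of myoepithelial cells in young mice (SD, n = 3) and 60.2 ± 7.38% in aged mice (SD, n = 4). The median cell held 15, 7 and 17 UMIs of Acta2 in Young A, B and C and 1, 1, 1 and 0 in Aged A, B, C and D. Cells with no Acta2 UMI made up 34.9 to 50.6% of the cells in aged mice and 0 to 1.85% in young mice, whereas Krt14 was seen in 93.6 to 97.7% of aged and 97.5 to 100% of young cells. As a background, Acta2 was seen in 0 to 3.32% of Luminal-HS cells after the same thinning.

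Among the other genes Actg2 was seen in 39.9 ± 16.6% of young and 3.67 ± 2.09% of aged myoepithelial cells, and Cnn1 in 69.9 ± 10.1% and 30.7 ± 7.68%. Tagln was seen in 90.5 ± 4.90% and 54.4 ± 8.78%, Mylk in 47.5 ± 5.39% and 17.6 ± 7.09%, and Tpm1 in 76.2 ± 7.79% and 73.5 ± 3.39%. For 8 of the 10 genes, all but Myl6 and Tpm1, the exact two-sided permutation p was 0.0286, the smallest that 35 divisions of 7 mice allow. Adjusted over the 20 shares tested in both cell types this was 0.0714, so 0 of 20 passed, thinned or not. The median cell held UMIs of 7, 7 and 9 of the 10 genes in the young mice and 4, 5, 4 and 4 in the aged mice.

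In pericytes taken as a whole the direction was the opposite. The study, which tested single cells and not sums per mouse, had described gene expression in pericytes as relatively constant with age. Actg2 was too low to be tested, and the other 9 genes rose with age. Of these, Cnn1 passed the filter on low counts only through its level in the aged mice. In the edgeR fit of 2601 genes 7.19% were called higher and 4.61% lower in aged mice, against 9 and 0 of these 9, and the median log2 change was 1.89 over the 9 and 0.009 over all genes. For 8 genes every aged mouse was above every young mouse, a separation found in 8.57% of the genes tested. None of these genes passed the test within either class of pericyte described above, and the values are given after those of the whole.

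The actin and myosin genes stood as follows in pericytes. Acta2 was at 1050, 1099 and 1180 CPM in Young A, B and C and at 6806, 3057, 2838 and 4074 CPM in Aged A, B, C and D, a log2 change of 2.07 (SE 0.27, edgeR adjusted p = 0.0012). The young mice lay close together and all aged mice were above them, Aged A the highest. Myl9 was at 783, 634 and 937 CPM in young and 4422, 1965, 1877 and 2161 CPM in aged mice, a change of 1.89 (SE 0.28, edgeR adjusted p = 0.00148). Myh11 was at 125, 119 and 192 CPM in young and 716, 360, 288 and 223 CPM in aged mice, a change of 1.62 (SE 0.34, edgeR adjusted p = 0.00848) that missed the threshold without Young A (1.51, adjusted p = 0.0532).

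Mylk and Myl6 had smaller changes. Mylk was at 285, 204 and 357 CPM in young and 691, 503, 447 and 309 CPM in aged mice, so that Aged D lay inside the young range. Its change was 0.96 (SE 0.26, edgeR adjusted p = 0.0294), and it missed the threshold without Aged A (0.76, adjusted p = 0.0503), Aged B (0.95, 0.0537), Young A (0.97, 0.105) or Young B (0.78, 0.147). Myl6 was at 1653, 1762 and 1793 CPM in young and 4363, 2410, 2086 and 2496 CPM in aged mice, a change of 0.86 (SE 0.23, edgeR adjusted p = 0.0241). Its call was lost without Young A (adjusted p = 0.105), Young B (0.0826) or Young C (0.0795), and without Aged A its change of 0.57 was under 1.5-fold. Actg2 was at 7.53, 0 and 0 CPM in young and 25.3, 84.8, 0 and 42.9 CPM in aged mice, with Aged C at 0 like Young B and C.

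The filament-binding genes completed the set. Cnn1 was at 22.6, 2.83 and 9.15 CPM in young and 152, 106, 102 and 77.2 CPM in aged mice, a change of 3.06 (SE 0.44, edgeR adjusted p = 0.00125). Tagln was at 541, 657 and 654 CPM in young and 3630, 1510, 1476 and 1664 CPM in aged mice, a change of 1.90 (SE 0.29, edgeR adjusted p = 0.00153). For both genes all aged mice were above all young mice. The young mice held little Cnn1, which passed the filter on low counts only through the aged mice, so the size of its change is uncertain. Tpm1 averaged 440 ± 114 CPM in young and 989 ± 295 in aged mice, a change of 1.34 (SE 0.24, edgeR adjusted p = 0.00446). Tpm2 averaged 469 ± 40.0 and 2045 ± 1037 CPM, a change of 2.27 (SE 0.30, edgeR adjusted p = 0.0012). In contrast to myoepithelial cells, the 2 tropomyosins moved the same way in pericytes.

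In pooled Acta2 levels, pericytes with and without endothelial UMIs differed far more from each other than young from aged within either class. Pooled over mice, Acta2 stood at 845 CPM in the 218 young and 828 CPM in the 61 aged pericytes with a UMI of Pecam1 or Cdh5, and at 5826 CPM in the 13 young and 8297 CPM in the 57 aged pericytes without one. Per mouse, the cells with such a UMI held 777, 845 and 1053 CPM in young and 1980, 88.2, 947 and 459 CPM in aged mice, and the groups overlapped. Cells without one held 9267, 3942 and 3881 CPM in young and 11671, 5210, 10127 and 9903 CPM in aged mice, again overlapping. All 10 genes together took 0.460% and 0.432% of UMIs in young and aged cells with such a UMI and 2.23% and 3.00% in cells without. Pooled Rgs5 stood at 964 CPM in young and 626 CPM in aged cells with such a UMI, and at 1332 and 553 CPM without. In Aged A, B, C and D it stood at 520, 202, 776 and 889 CPM with and 169, 795, 82.3 and 851 CPM without. Pooled Des stood at 180 and 165 CPM in young and aged cells with and 266 and 785 CPM without. Median UMIs per cell were 5334 and 5488 with and 4363 and 3845 without. Whether the classes are different kinds of cell, or depend on depth, was not tested.

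Fitted within each class with edgeR, 0 of the genes passed the test, and 0 had an unadjusted p under 0.05. Among cells with a UMI of Pecam1 or Cdh5, 8 of the 10 genes could be tested, 3.22% of 2020 genes were called higher in aged mice, and the changes of the 8 lay between -0.70 (Mylk, edgeR adjusted p = 0.479) and 0.32 (Tagln, adjusted p = 0.819), with Acta2 at 0.11 (SE 0.59, adjusted p = 0.941). Among cells without, 9 could be tested and 0.141% of 711 genes were called higher. The changes lay between -0.20 (Cnn1, edgeR adjusted p = 0.954) and 0.44 (Myl9, adjusted p = 0.742), with Acta2 at 0.31 (SE 0.44, adjusted p = 0.837). That fit rests on 5 and 6 young cells of Young A and B, Young C being dropped with 2, and a p that misses the threshold there does not show that the ages were alike.

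The number of contractile genes per cell followed the same classes. After thinning, cells were pooled over the mice of an age. The median pericyte with an endothelial UMI then held UMIs of 3 of the 10 genes in young and 2 in aged mice. The median pericyte without one held 8 in both pools. Per mouse, cells with one had medians of 3.5, 3 and 4 in Young A, B and C. They had 2, 1, 4 and 1.5 in Aged A, B, C and D. Cells without one had medians of 8, 6 and 6.5 in young mice, from 5, 6 and 2 cells. In aged mice these were 8, 8, 9 and 8. Again pooled over mice, cells with at least 8 of the 10 genes made up 5.5% of young and 6.56% of aged pericytes with such a UMI. They made up 53.8% (7 of 13) and 70.2% (40 of 57) of those without. Over all pericytes they were 8.23% of young and 37.3% of aged cells. After thinning, 0 of the 10 shares of pericytes with a UMI of a single gene had an unadjusted exact p under 0.05, and without thinning 1 had, Myh11, seen in 32.2% of young and 52.2% of aged pericytes (exact permutation p = 0.0286, adjusted 0.0635). Acta2 was seen in 52.1% of young and 60.4% of aged pericytes (exact permutation p = 0.286).

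**Figure D3:**
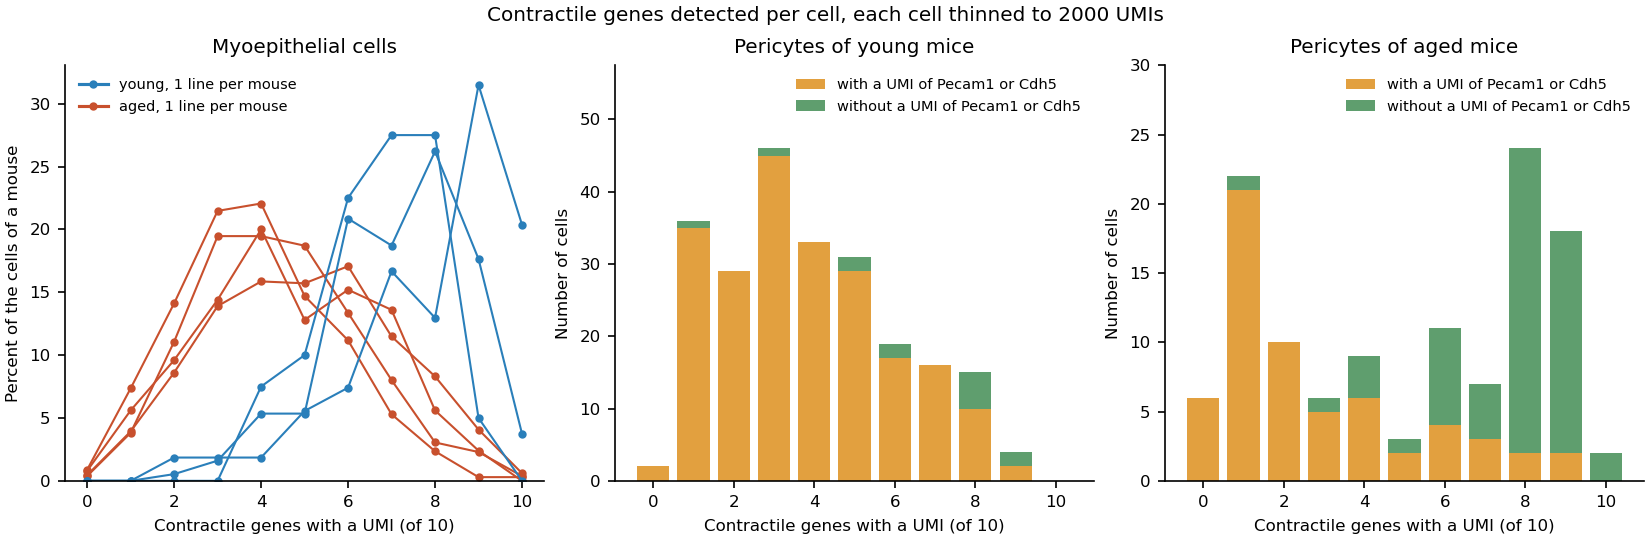
Cells by the number of the 10 genes with a UMI after thinning to 2000 UMIs. The left panel gives the percent of myoepithelial cells with 1 line per young (blue) or aged (red) mouse, and the median of each young mouse is 7 or 9 genes and that of each aged mouse 4 or 5. The other panels give numbers of pericytes pooled over young and over aged mice, stacked by whether the cell had a UMI of Pecam1 or Cdh5. Cells with at least 8 genes make up 8.23% of the young and 37.3% of the aged pool.

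Other markers in the pericyte sums are set beside these results. The 7 pericyte markers summed to 1159 to 1535 CPM in aged and 1311 to 1898 CPM in young mice, with Rgs5 at a log2 change of -0.62 (edgeR adjusted p = 0.146) and Des, the muscle intermediate filament, higher in aged mice by 1.46 (adjusted p = 0.00364). The 5 endothelial markers summed to 5711 to 9742 CPM in aged and 13121 to 15356 CPM in young mice, and in no mouse was one of them at 0. Most of that sum was Fabp4. Pooled over young pericytes with endothelial UMIs it stood at 12642 CPM, against 675 CPM for Pecam1, the next. Fabp4 (-0.83, edgeR adjusted p = 0.0167) and Cdh5 (-0.99, adjusted p = 0.00785) were called lower in aged mice, and Pecam1, Eng and Sox17 were not. The 5 myoepithelial markers summed to 21.2 to 520 CPM in aged and 4.57 to 67.8 CPM in young mice, and the 4 fibroblast markers to 11.3 to 68.6 and 179 to 480 CPM. Immune markers summed to 26.5 to 1432 CPM in aged mice, with Aged A the highest, and to 68.6 to 372 CPM in young mice. Luminal markers summed to 175 to 583 and 242 to 391 CPM, and among them Krt8 was called higher in aged mice (1.12, edgeR adjusted p = 0.0391). Apart from the endothelial UMIs, the part of these lists in the result was not tested.

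**Figure D4:**
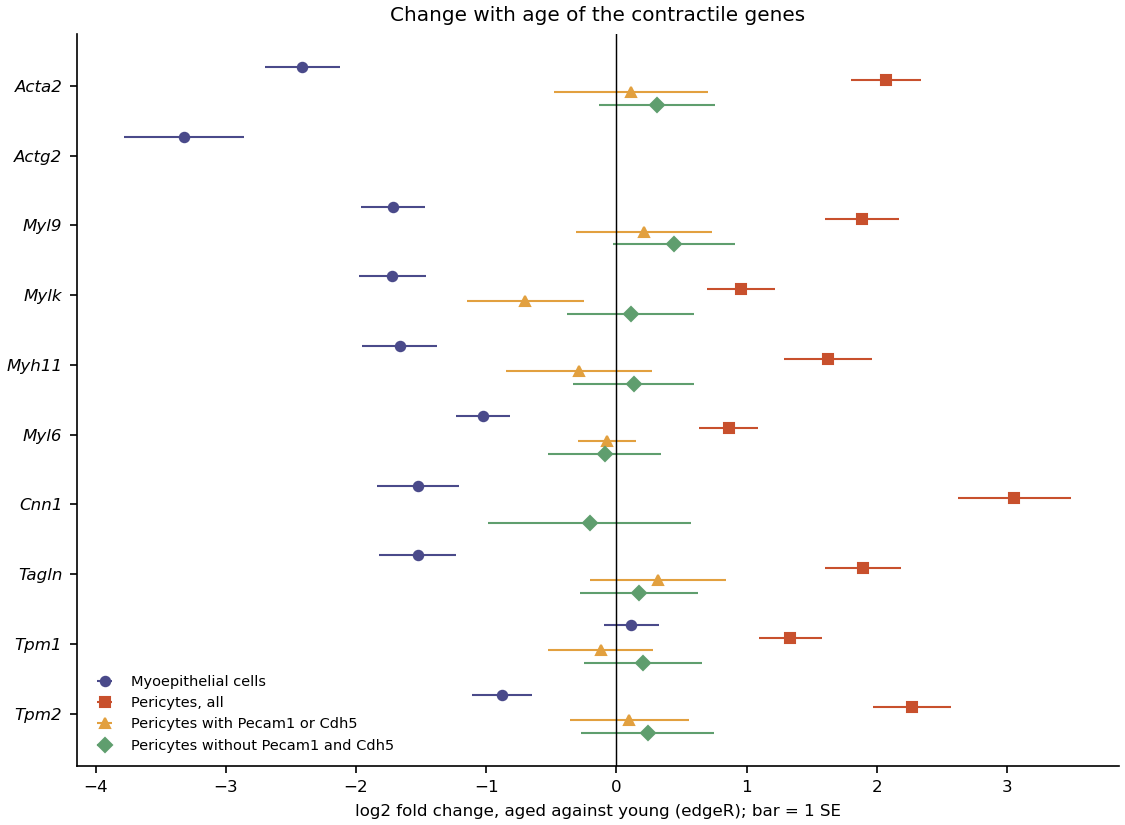
Change with age of each of the 10 genes, as the log2 ratio of aged over young from edgeR with a standard error derived from its F statistic, in myoepithelial cells, in pericytes as a whole and in pericytes with and without a UMI of Pecam1 or Cdh5. All myoepithelial values but that of Tpm1 lie below 0, from -3.32 to -0.88, and the 9 values of all pericytes lie above 0, from 0.86 to 3.06, while those within each class of pericyte lie between -0.70 and 0.44.

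The difference between these changes was tested within mice, as the interaction of cell type and age in one edgeR fit with the mouse as a block. It was positive for 10 of 10 genes, against 5.48% of 4858 genes tested, with a median of 3.26 over the 10 and -0.008 over all genes. On the log2 scale the change in pericytes exceeded that in myoepithelial cells by 4.36 for Acta2 (adjusted p = 1e-07), by 3.47 for Myl9 (adjusted p = 2.08e-07) and by 1.16 for Tpm1 (adjusted p = 0.00892). With only pericytes that had a UMI of Pecam1 or Cdh5, where 1.66% of 4746 genes were called positive, 3 genes were called, at 2.16 for Acta2 (adjusted p = 0.0161), 1.70 for Myl9 (adjusted p = 0.045) and 3.63 for Cnn1 (adjusted p = 0.031), and Tpm1 turned to -0.35 (adjusted p = 0.703). The value of Cnn1 there rests on few UMIs and depends on the prior count of the fit. Those pericytes held 4, 0 and 2 UMIs of it in Young A, B and C and 6, 0, 2 and 0 in Aged A, B, C and D. With only pericytes that had none, which leaves out Young C, 0.362% of 3318 genes and 3 of the 10 were called, at 2.89 for Acta2 (adjusted p = 0.000199), 2.35 for Myl9 (adjusted p = 0.00129) and 2.04 for Mylk (adjusted p = 0.0293).

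The 2 cell types were also compared within each mouse. In log2(CPM + 1), the level of Acta2 in pericytes minus that in myoepithelial cells of the same mouse was -2.97 to -1.98 in the 3 young mice and 0.75 to 2.43 in the 4 aged mice. Mylk, Myh11, Myl6, Tagln and Tpm2 were likewise below 0 in 3 of 3 young and above 0 in 4 of 4 aged mice. Myl9 lay between -0.28 and 0.20 in young mice and between 2.60 and 4.08 in aged mice. Cnn1 was lower in pericytes in all 7 mice, with differences of -7.19 to -4.87 in young and -1.99 to -0.71 in aged mice, and these differences in level were not tested. Split by class of pericyte, the order for Acta2 was less uniform. Pericytes without endothelial UMIs held 9267, 3942 and 3881 CPM in Young A, B and C. The myoepithelial cells of these mice held 8083, 4345 and 9245 CPM. Pericytes with them held 88.2, 947 and 459 CPM in Aged B, C and D, against 1816, 1214 and 754 in their myoepithelial cells. In Aged A such pericytes held 1980 CPM, above its myoepithelial cells. Those with endothelial UMIs lay below myoepithelial cells in all young mice. Those without lay above in all aged mice.

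The share that the muscle form held within its protein family also differed between the ages. Acta2 and Actg2 made up 64.8%, 53.8% and 66.0% of the UMIs of 4 actins (with the non-muscle Actb and Actg1) in myoepithelial cells of Young A, B and C. In Aged A, B, C and D they made up 18.2%, 26.7%, 17.8% and 12.4%, far below the young mice. In pericytes taken as a whole these actins made up 17.5%, 9.06% and 16.7% in young and 41.3%, 26.5%, 28.5% and 32.0% in aged mice, and again the groups did not overlap. Myl9 as a share of 3 regulatory light chains (with Myl12a and Myl12b) was 41.2 to 55.6% in young and 15.3 to 27.7% in aged myoepithelial cells, and 35.2 to 41.4% in young and 69.9 to 87.8% in aged pericytes.

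Heavy chains and tropomyosins gave less uniform shares. Myh11 made up 55.7 to 72.3% of the UMIs of 3 heavy chains (with Myh9 and Myh10) in young and 35.9 to 59.7% in aged myoepithelial cells, which overlapped, and 20 to 44.7% in young and 46.4 to 85.0% in aged pericytes, which did not. Tpm1 and Tpm2 together made up 82.5 to 89.1% of 4 tropomyosins (with Tpm3 and Tpm4) in young and 70.6 to 78.2% in aged myoepithelial cells. In pericytes they made up 42.4 to 48.8% in young and 73.3 to 88.0% in aged mice. Tpm2 alone was 72.0 to 76.1% of Tpm1 and Tpm2 in young and 54.8 to 64.8% in aged myoepithelial cells. These are shares of 3′ UMIs and the differences between age groups in them were not tested.

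**Figure D5:**
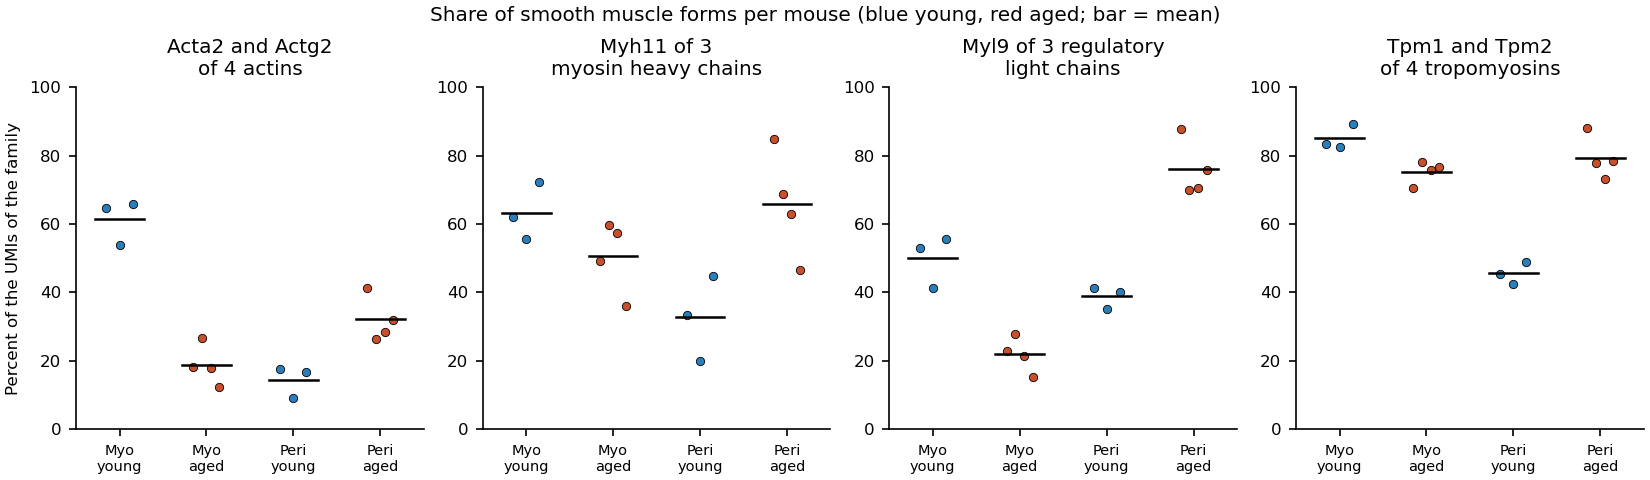
Share of UMIs, in percent, that the smooth muscle forms take of their protein family in myoepithelial cells and pericytes, with 1 point per mouse for actins, tropomyosins, myosin heavy chains and regulatory light chains. The smooth muscle actins take 53.8 to 66.0% in young and 12.4 to 26.7% in aged myoepithelial cells, and 9.06 to 17.5% in young and 26.5 to 41.3% in aged pericytes.

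Other genes of the pathway are set beside all genes in myoepithelial cells, of which 12.8% rose and 14.8% fell. Among 15 genes of the thin filament and its anchors, 13 were tested, of which 3 rose and 3 fell. Tpm3, a tropomyosin of non-muscle cells, rose by 0.78 (log2, edgeR adjusted p = 0.0096) and Pdlim7, a scaffold on actin fibres, by 0.75 (adjusted p = 0.0234), along with the crosslinker Actn1. Cnn2, a calponin of non-muscle cells, fell by 2.03 (edgeR adjusted p = 0.000239) and Flna, the actin crosslinker filamin A, by 1.65 (adjusted p = 0.000151), along with Csrp1. Of 6 non-muscle actin and myosin genes, Actg1 rose, from 1942 to 2857 CPM in young to 3378 to 3957 CPM in aged mice (log2 change 0.63, edgeR adjusted p = 0.032), while the heavy chains Myh10 (-1.19, adjusted p = 0.0463) and Myh9 (-0.88, adjusted p = 0.00453) fell.

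Of the 14 genes that control contraction, 13 were tested in myoepithelial cells and 3 rose and 3 fell, beside the same 12.8% and 14.8% of all genes. Oxtr, the oxytocin receptor that starts milk ejection, stood at 31.2 to 88.5 CPM in young and 2.76 to 8.96 CPM in aged mice, a log2 change of -3.16 (edgeR adjusted p = 0.000121). Ppp1r14a, an inhibitor of myosin phosphatase, fell by 1.93 (edgeR adjusted p = 0.00211), and Calm3, a calmodulin, also fell. Rock1, a kinase that acts on the same phosphatase, rose by 1.08 (edgeR adjusted p = 0.00318), Ppp1cb, a catalytic subunit of the phosphatase, by 0.83 (adjusted p = 0.00683), and Rhoa, the GTPase upstream of Rock1, also rose. Among 6 transcription factors and cofactors of smooth muscle genes, 5 were tested and 2 fell, where 14.8% of all genes fell. These were Srf, which binds the CArG box (-1.14, edgeR adjusted p = 0.0201), and Tead1, which binds CATTCC (-0.74, adjusted p = 0.0222), while Myocd, the myocardin cofactor, was too low to test.

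In pericytes as a whole, 5 of 14 tested genes of the thin filament rose and 0 fell, where 7.19% of all genes rose and 4.61% fell. Lmod1, a smooth muscle leiomodin that nucleates actin, rose by 2.39 (log2, edgeR adjusted p = 0.00446), and Dstn, the actin-depolymerising destrin, by 1.94 (adjusted p = 0.00143). The others were Des, Csrp1 and Cald1. In the control list 4 of 11 rose and 2 fell, with Ppp1r14a at 1.41 (edgeR adjusted p = 0.0263) and Ppp1r12a, the targeting subunit of myosin phosphatase, at 1.38 (adjusted p = 0.00307), against Gnaq, a G protein subunit, at -1.93 (adjusted p = 0.00708) and Itpr1, a calcium release channel, at -1.67 (adjusted p = 0.0237). None of 5 non-muscle or 2 transcription genes tested was called. Within the cells without endothelial UMIs Lmod1 was at 1.00 (edgeR adjusted p = 0.56) and Dstn at 1.33 (adjusted p = 0.258), and within the cells with them Dstn was at 0.72 (adjusted p = 0.486). Ppp1r14a turned to -0.60 without and -0.44 with them, Csrp1 to -0.17 and -0.21, and Cald1 to -0.10 and -0.09. Des (1.50 and 0.13), Ppp1r12a (0.45 and 0.22), Rock1 (0.11 and 0.84) and Ppp1cb (0.73 and 0.10) stayed above 0. None of these genes that rose in the whole was called within a class.

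In the 6 other cell types with enough cells to be fitted, 2 pairs of a gene and a type were called. Tagln rose in vascular endothelial cells, which line blood vessels, from 108, 92.5 and 136 CPM in Young A, B and C to 425, 375, 481 and 416 CPM in Aged A, B, C and D. All aged mice were above all young mice, the log2 change was 2.29 (SE 0.18, edgeR adjusted p = 1.77e-06), and 14.6% of genes rose there. It was between 2.18 and 2.46 when any mouse was left out. Pericyte markers summed in these cells to 7.68 to 79.3 CPM in aged and 121 to 414 CPM in young mice, and the 5 endothelial markers to 12236 to 13432 and 33320 to 41372 CPM. The endothelial markers did not move together. Fabp4 (-1.26, edgeR adjusted p = 2.37e-05) and Sox17 (-1.17, adjusted p = 0.000127) fell, and Cdh5 was at -0.52 (adjusted p = 0.0135). Pecam1 was higher in aged mice at 0.55 (adjusted p = 0.0112) and Eng at 0.25 (adjusted p = 0.182). Of the other lists, myoepithelial markers (62.4 to 175 CPM against 9.80 to 36.9) and immune markers (619 to 8700 against 197 to 599) were higher in aged mice there. Luminal markers were lower, with 203 to 322 CPM in aged against 354 to 606 in young mice. Fibroblast markers stood at 12.5 to 56.2 against 48.45 to 265 CPM, which overlapped. Krt14 (2.48, edgeR adjusted p = 0.0018), Krt17 (2.66, adjusted p = 0.000849) and Cd74 (3.35, adjusted p = 0.0077) rose, and the luminal Krt19 fell (-0.66, adjusted p = 0.0413). The part of these lists in the result was not tested. None of the other 6 genes tested there was called, while Myl9 was called with no filter on low counts (-0.88, adjusted p = 0.00994) and without Aged C (-1.38, adjusted p = 0.0167), and Tpm1 without Aged A (0.65, adjusted p = 0.0421) or Young C (0.85, adjusted p = 0.00871).

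Acta2 was low in Luminal-HS cells and lower in aged mice, with 18.6, 19.1 and 8.17 CPM in young and 6.5, 3.41, 4.08 and 4.73 CPM in aged mice. The change was -1.54 (SE 0.40, edgeR adjusted p = 0.0476), where 2.32% of genes fell. A single cell of Young B held 20 of the 36 Acta2 UMIs of that mouse, and without it the mouse stood at 8.53 CPM and the change was -1.21 and missed the threshold (adjusted p = 0.0906). The call was lost when Aged A (adjusted p = 0.072), Aged B (0.103), Aged C (0.0974), Aged D (0.0817), Young A (0.133) or Young B (0.123) was left out, and remained without Young C (0.0238). In the other 4 types 0 genes were called by edgeR, of 9 tested in luminal AV cells (6.12% of all genes called in either direction), 5 in fibroblasts (3.16%), 1 in T and B cells (0.656%) and 1 in Mb macrophages (1.16%). At an unadjusted p under 0.05 there were 2, Myl9 and Tpm2 in luminal AV cells, and that of Myl9 was called without Young C (-2.10, edgeR adjusted p = 0.0246). DESeq2 called 0 of them as well. For Tpm2 in luminal AV cells, a single cell of Young B, described at the end, held 165 of the 185 UMIs of that mouse. Without that cell the mouse stood at 36.4 in place of 333 CPM, and the change without it was not tested.

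Over the 58 sums that held 10 or more cells of a type from 1 mouse, Pearson's r of log2(CPM + 1) between pairs of the 10 genes ran from 0.53 (Myl6 and Tpm1) to 0.94 (Acta2 and Myh11). The points share mice, libraries and depth, so these values are descriptions. Outside the set, Nexn, an actin-binding protein of muscle, was among the 3 most alike genes for 7 of the 10, with r of 0.88 for Acta2 and 0.92 for Mylk. Scube3 was among the 3 for Acta2, Myh11, Cnn1, Tagln and Tpm2. Actg2 was closest to Vsnl1 (r = 0.86) and Tpm1 to Dstn (r = 0.81).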

How the data were processed

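Libraries of 3 young and 4 aged mice were made with 3′ tag chemistry. Per the submitters' processing notes the reads were aligned to mm10 with Cell Ranger 2.0, and the authors deposited UMI counts that were not normalized, with the mouse and cell type of each cell, which were used as given. The matrix had 27998 rows, and 56 symbols found on 2 rows were added up. Unused columns of samples numbered 0. Each mouse was grouped by its label.

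For each mouse and type with at least 3 cells, counts were added up, filtered with filterByExpr, scaled by TMM and tested with the quasi-likelihood test of edgeR 4.0.16 in R 4.3.3 over all genes, with Benjamini-Hochberg adjustment. A gene was called at an adjusted p under 0.05 and 1.5-fold, the difference between cell types at an adjusted p under 0.05 alone. The p-values measure the spread between mice. Each SE is the size of the log2 change divided by the square root of the F statistic of the test, since edgeR gives none. The fits were tested on simulated data. Shares of cells were compared by exact two-sided permutation tests (scipy 1.17.1) after each cell was thinned to 2000 UMIs. No cell was below that depth (0 cells). Scrublet (scanpy 1.11.5, expected rate 0.06) called 73 cells doublets, which were kept. Other tools were Python 3.11.15, numpy 2.4.6, pandas 2.3.3 and matplotlib 3.10.9. Gene positions are those of GENCODE on GRCm38, and promoters those of RefSeq.

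The 10 genes and all lists were chosen with earlier results of these data known. From each pathway list the 2 called genes with the largest rise and the 2 with the largest fall are named with values, and other called genes by name after their values were seen. For likeness the 3 genes of highest r are considered. Alternatives were RLE factors, DESeq2 1.42.0, no filter, at least 10 cells, 1.25-fold between all pairs of mice, no minimum of fold, the label letters as a block, equal totals, no doublets, no ribosomal and mitochondrial genes, each mouse left out, and pericytes without endothelial UMIs. Fits of only the pericytes with them, and of Luminal-HS cells without 1 cell rich in Acta2, were added after the data were seen.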

Additional observations from a re-analysis of the deposited data

Results flagged for a closer look

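The change with age differed between pericytes and myoepithelial cells in all 10 genes by the edgeR interaction test. On the log2 scale the pericyte change exceeded the myoepithelial one by 4.36 for Acta2, 6.64 for Actg2, 3.47 for Myl9, 2.66 for Mylk, 3.2 for Myh11, 1.81 for Myl6, 4.47 for Cnn1, 3.32 for Tagln, 1.16 for Tpm1 and 2.97 for Tpm2. The value of Actg2 depends on the prior count of the fit, since 2 of the 3 young mice had none of its UMIs in pericytes. Within pericytes of 1 class of endothelial UMIs, 3 of the genes were called in each class, beside 1.66% of all genes positive in cells with such UMIs and 0.362% in cells without. In cells with them the call of Cnn1 rested on few UMIs, and Tpm1 was at -0.35. The part of the endothelial UMIs in the difference beyond this was not tested.

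In 5 of 66 sets of values of the 4 aged mice, 1 mouse stood apart by Dixon's test at the 95% level on the gap over the range, where chance gives about 1 set in 20. In pericytes Aged A was highest for Myl9 at 4420 CPM (gap over range 0.888), for Tagln at 3630 CPM (0.913) and for the share of UMIs in the 10 genes at 2.58% (0.846). The difference of Tpm1 between pericytes and myoepithelial cells was 1.05 on the log2 scale in Aged A (0.846). In myoepithelial cells the median number of the 10 genes seen per cell was 5 in Aged B and 4 in the other aged mice. Aged A was represented by 24 pericytes. Without it, 7 of the genes rose in pericytes, and Mylk and Myl6 were not called.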

How the results depend on the processing

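The count of genes that rose in pericytes, 9, was 0 among cells without endothelial UMIs and 0 among cells with them, and that of genes whose change differed between the types, 10, was 3 and 3. Left out 1 mouse at a time, it ran from 6 (without Young A) to 9 for genes rising in pericytes, with 7 without Young B and 7 without Aged A, from 8 to 9 for genes falling in myoepithelial cells, where Tpm2 was lost without Young C, from 9 to 10 for the difference between the types, with 9 without Young A, and from 1 to 4 for the calls in other types. Without 1 Luminal-HS cell of Young B, chosen after the data were seen, 1 pair was called in the other types in place of 2. A minimum of fold between all pairs of mice left 8 genes falling in myoepithelial cells (not Tpm2) and 6 rising in pericytes (not Mylk, Myl6 and Myh11). The counts of genes rising in myoepithelial cells and falling in pericytes were 0 to 0.

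Signs turned for Tpm1 in myoepithelial cells at equal totals (-0.07) and without Young B (-0.01, while the other mice left out gave up to 0.39). In pericytes they turned among cells with endothelial UMIs for Mylk (-0.70), Myh11 (-0.29), Myl6 (-0.07) and Tpm1 (-0.12), and among cells without for Myl6 (-0.09) and Cnn1 (-0.20). The difference between the types turned for Tpm1 (-0.35) with only the cells with them. Causes were not tested. Label letters name different animals and their deviations did not go together (r -0.037 to 0.058). With the letters as a replicate block, 8 genes fell in myoepithelial cells (Tpm2, adjusted p = 0.055) and 8 rose in pericytes (Myl6, adjusted p = 0.0759).

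Over all genes, lower and higher calls in myoepithelial cells were 998 and 862, against 646 and 618 with the block, 374 and 332 at equal totals and 480 and 492 without Young A. In pericytes they were 120 and 187, against 313 and 240 with no filter (43.4% of calls higher in place of 60.9%, median of all genes -0.176), 69 and 115 with the block, 72 and 97 at equal totals, 48 and 80, 52 and 99 and 73 and 108 without Young A, B or C, 13 and 65 with only the cells with endothelial UMIs (83.3% higher), and 0 and 1 without them. The shares of cells were not tested with a mouse left out, since 6 mice cannot reach an adjusted p under 0.05.

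Few pericytes per aged mouse (20 to 46) and few young pericytes without endothelial UMIs (13) limit what could be detected in them.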

Other observations

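In luminal AV cells of Young B a single cell held most of the tropomyosin. This cell, with 6956 UMIs, had 191 UMIs of Tpm1 and 165 of Tpm2 but 1 of Acta2, and its leading genes were Acta1 (753 UMIs), Tnnc2 (253) and Mylpf (247), which are known from skeletal muscle fibres, and it also had 176 UMIs of the muscle creatine kinase Ckm. Without it the level in luminal AV cells of that mouse was 96.5 in place of 439 CPM for Tpm1, where the other mice had 85.4 to 149 CPM, and 36.4 in place of 333 CPM for Tpm2, where the others had 8.05 to 21.3 CPM. It was not called a doublet, and it was singled out after its values were seen.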
